A study of Rattus norvegicus with 9 samples.

Results

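The rat major histocompatibility complex (MHC), called RT1, lies near the start of chromosome 20. Its accessible chromatin was examined in dorsal root ganglia (DRGs), which hold the cell bodies of sensory neurons. The regions were chosen by position alone, as all accessible regions on chromosome 20 that start at or after 1000000 and end at or before 5600000 in the rat genome rn6. This rule took 464 of the 186719 accessible regions of the genome, and the other 4039 regions of chromosome 20 served as the background.

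Chronic constriction injury (CCI), in which the sciatic nerve is loosely tied, is a surgical model of neuropathic pain. ATAC-seq, in which the Tn5 transposase cuts open chromatin so that reads mark accessible DNA, was performed on ipsilateral L4 to L6 DRGs of 2 CCI rats and 3 naive rats, with 1 rat per library. All were adult female Sprague-Dawley rats, an outbred stock, and the injured rats were sampled 14 days after surgery. The naive rats had no surgery, so the effects of the nerve injury and of the operation itself cannot be told apart. ChIP-seq for H3K4me1, a histone mark of enhancers and promoter flanks, was performed on pools of 3 rats, 2 pools per group, and was deposited as 1 merged list of positions. The text of the study gives other numbers of ATAC-seq libraries per group than the sample labels, which were followed here. It states the age as 8 to 10 weeks in one place and 12 to 16 weeks in another.

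MHC class I genes encode the heavy chains that show peptides from inside the cell to CD8 T cells, and class II genes encode the chains that show captured peptides to CD4 T cells. The class III genes, with complement components and cytokines, lie beside them together with many genes that have no immune role. In the rat, unlike in humans, the classical class I genes named RT1-A stand apart from the other class I genes, next to the class II block.

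Gene names were available for 29 of the 464 regions, from the lists of differential regions in the study, matched by exact coordinates. These lists were made on the same libraries, so the share of named regions that passed a test here is not independent evidence. The names place RT1-S3, RT1-A3, Ring1, Rxrb, Cfb, Lta, RT1-A2 and RT1-A1 in this order inside the interval, which are known genes of the MHC. No region carried the name of a class II, antigen processing, heat shock or olfactory receptor gene, and those gene groups are not described by name. The defining markers of sensory neurons, glia and immune cells were not checked, since no annotation of rn6 was used here.

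Promoter sequences of the class I genes are shown because the RT1-A regions carried the clearest changes in both directions and the genes are close copies. RefSeq windows of the GRCr8 assembly matched 19 of the 27 gene names. The 250 bases before the start are printed 5′ to 3′, all on the plus strand. These are GRCr8 positions, and the accessible regions are given in rn6. Capitals mark matches, on either strand, to GAAANNGAA (core of the interferon-stimulated element), CTGATTGG (core of the class II Y box) and GATTCCCC. The last is part of the class I element called enhancer A and was added to the search after these sequences were read.
RT1-A1 (GRCr8 chr20:4906959-4907208): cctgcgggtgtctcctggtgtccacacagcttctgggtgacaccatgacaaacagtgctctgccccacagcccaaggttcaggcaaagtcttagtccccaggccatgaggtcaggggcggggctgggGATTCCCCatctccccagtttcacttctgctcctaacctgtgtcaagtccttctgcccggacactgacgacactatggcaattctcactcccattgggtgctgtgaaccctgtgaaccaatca
RT1-A2 (GRCr8 chr20:4872621-4872870): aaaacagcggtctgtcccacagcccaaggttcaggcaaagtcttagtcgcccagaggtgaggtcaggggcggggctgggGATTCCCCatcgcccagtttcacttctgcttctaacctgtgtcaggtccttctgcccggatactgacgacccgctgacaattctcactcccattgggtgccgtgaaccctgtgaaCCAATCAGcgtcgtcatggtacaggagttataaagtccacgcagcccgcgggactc
RT1-A3 (GRCr8 chr20:4849201-4849450): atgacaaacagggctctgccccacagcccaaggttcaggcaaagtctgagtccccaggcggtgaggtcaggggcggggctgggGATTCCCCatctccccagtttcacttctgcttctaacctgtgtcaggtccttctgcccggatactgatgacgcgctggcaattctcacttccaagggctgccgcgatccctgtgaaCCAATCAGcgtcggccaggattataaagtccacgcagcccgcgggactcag
RT1-S3 (GRCr8 chr20:2675278-2675527): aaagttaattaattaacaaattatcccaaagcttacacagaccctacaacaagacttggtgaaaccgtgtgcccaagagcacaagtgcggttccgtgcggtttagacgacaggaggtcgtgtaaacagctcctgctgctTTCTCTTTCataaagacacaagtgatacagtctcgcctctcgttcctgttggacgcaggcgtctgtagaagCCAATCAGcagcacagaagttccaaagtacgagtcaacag

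The RT1-A1 and RT1-A2 windows were identical at 182 of 201 aligned bases (90.5%). RT1-A1 and RT1-A3 shared 188 of 206 bases (91.3%), and RT1-A2 and RT1-A3 shared 223 of 243 (91.8%). All 3 RT1-A windows held GATTCCCC, which was found in 0.69% of the 33469 RefSeq windows of this length. CTGATTGG, the core of the class II Y box, was found on the reverse strand in RT1-A2, RT1-A3 and RT1-S3, against 3.19% of all windows. In RT1-A1 it began 7 bases before the annotated start and ran past it. Whether these matches act as a Y box in class I genes was not tested. RT1-S3 alone among the 19 named windows held the string GAAANNGAA, against 8.12% of all, and other forms of the interferon-stimulated element were not searched. TGANTCA (AP-1), found in 6.34% of all windows, was present in Vwa7. No named window held the string GGACTTTCC (an NF-kB core, 0.266% of all) or CCTAGCAAC (class II X box core, 0.654% of all). Only these strings were searched, so a window without a match may still hold another form of the same element.

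Base composition of the windows overlapped between class I and the other named genes. The 14 named windows that were neither class I genes nor LOC102549726 had a median of 19 CpG dinucleotides, with a range of 3 to 36, and a median GC content of 69.4%. The 4 class I windows held between 4 and 13 CpG dinucleotides, fewest in RT1-A1, and had a median GC content of 57.4%. Over all RefSeq windows the medians were 5 CpG dinucleotides and 51.2%.

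The libraries held between 4633807 and 13248437 reads in accessible regions, lowest in naive rat 2 and highest in naive rat 1. The deposited value, called normalized reads, is the number of reads in a region divided by a size factor of the library, with 1 read as the lowest value. In the MHC, the median region had between 19 reads (naive rat 2) and 55.5 reads (naive rat 1), and 12 regions were at the floor of 1 read in naive rat 2. The precision of single regions is therefore lowest in naive rat 2.

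Taken over the whole interval, accessible chromatin was denser and stronger in the MHC than in the rest of chromosome 20. There were 100.9 accessible regions per Mb, against 78.3 per Mb in the rest of chromosome 20, and they covered 4.72% of the interval against 2.66%. The median MHC region was 314 bp long and had 20.04 normalized reads on average over the rats, against 246 bp and 9.87 normalized reads in the rest of the chromosome. H3K4me1 overlapped 309 of the 464 MHC regions by at least 1 bp (66.6%), and 33.9% of the rest of chromosome 20. Density was uneven, from 65.2 per Mb between the regions named Csnk2b and RT1-A2 to 213 per Mb from RT1-A3 to Rxrb. In the 2176 kb before RT1-S3 it was 70.3 per Mb, and 48.4% of the regions there overlapped H3K4me1. The merged H3K4me1 list held 485 regions in the MHC, which covered 15.4% of the interval against 7.85% of the rest of the chromosome. The longest, chr20:4362930-4374460 (11531 bp), was also longer than any other on chromosome 20 and contained the accessible regions named Rnf5 and Agpat1.

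The 5 MHC regions with the highest mean were 1204 to 1820 bp long and all overlapped H3K4me1. The Rnf5 promoter region, chr20:4368572-4369828, had 747 and 650 normalized reads in the CCI rats and 455, 564 and 429 in the naive rats. Rnf5 encodes a ubiquitin ligase of the endoplasmic reticulum. The Csnk2b promoter region, chr20:5112304-5114052, had 528 and 389 normalized reads after CCI and 264, 355 and 279 in naive rats. Csnk2b encodes the regulatory subunit of casein kinase 2. The others were unnamed regions at chr20:4697746-4699285, chr20:5154816-5156019 and chr20:3298744-3300563. None of the 5 passed the test between groups, and in the unnamed region at 4697746 the CCI rats (648 and 436 normalized reads) overlapped the naive rats (416, 518 and 449).

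Accessibility of the MHC as a whole was higher in both CCI rats than in any naive rat. The median of log2(normalized reads + 1) over the 464 regions was 4.63 in CCI rat 1 and 4.51 in CCI rat 2, against 4.26, 4.32 and 4.23 in naive rats 1, 2 and 3. The groups did not overlap. The rest of chromosome 20 was likewise higher in the CCI rats, at 3.70 and 3.64 against 3.48, 3.46 and 3.44. Of the reads inside accessible regions, the share that fell in MHC regions was 0.559% and 0.543% in the CCI rats and 0.423%, 0.466% and 0.438% in the naive rats.

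**Figure D1:**
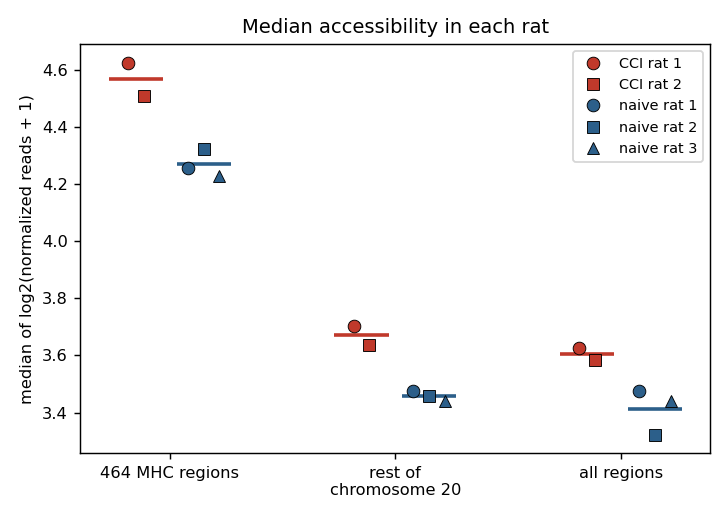
Median of log2(normalized reads + 1) on the vertical axis for the MHC regions, the rest of chromosome 20 and all regions. Each point is 1 rat and each bar a group mean, and the CCI points lie above the naive points in each set.

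The MHC was more accessible than the rest of its chromosome in every rat. The MHC median minus the median of the rest of chromosome 20 was 0.90 ± 0.038 on the log2 scale after CCI (SD, n = 2) and 0.81 ± 0.045 in naive rats (SD, n = 3), a difference of 0.086. An exact two-sided permutation test over the 5 rats gave p = 0.2, which is the smallest p this design allows. In naive rat 2 the excess was 0.86, close to the 0.87 of CCI rat 2. In bulk tissue, more open chromatin per cell and more cells of a type cannot be told apart.

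The rise was not even along the interval. The median log2 fold change of CCI over naive was 0.38 over the 464 MHC regions, 0.24 over the rest of chromosome 20 and 0.13 over all regions. The 153 regions before RT1-S3 had a median of 0.053, and 83 of them had a fold change above 0. From RT1-S3 to the end of the interval, 311 regions had a median of 0.49. Beyond the interval, the next 886 regions of chromosome 20, from 5.6 to 15 Mb, had a median of 0.57, and the 3084 regions after that had 0.12. The share that passed p below 0.01 in limma was 11.9% from RT1-S3 to the end of the interval and 10.05% from there to 15 Mb. The higher level was thus shared with the neighbouring part of the chromosome, and these segments were drawn after the values were seen.

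**Figure D2:**
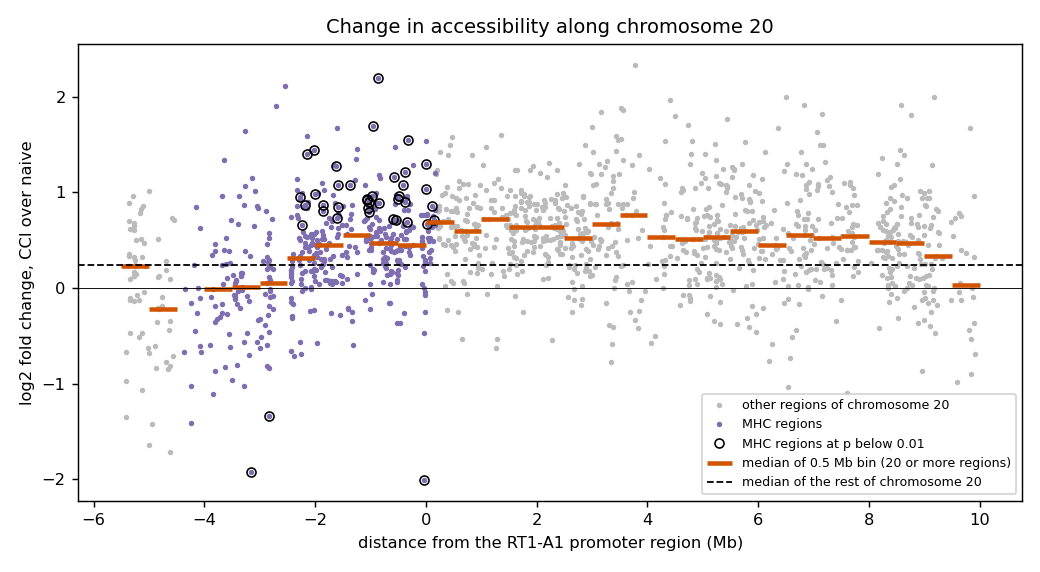
Log2 fold change of CCI over naive for single regions against distance from the RT1-A1 promoter region in Mb. The bars are medians of 0.5 Mb bins with at least 20 regions, the dashed line is the median of the rest of chromosome 20 (0.24), and the raised level continues past the end of the MHC.

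The MHC medians were above those of the rest of the chromosome in each of 4 classes of signal strength. Among MHC regions with a mean of 100 normalized reads or more, the median log2 fold change was 0.49 in 67 regions, against 0.14 in 205 regions of the rest of the chromosome. Among regions below 10 normalized reads it was 0.31 in 130 MHC regions and 0.23 in 2051 others. The MHC regions with H3K4me1 had a median log2 fold change of 0.41, and those without it 0.30.

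At an unadjusted two-sided p below 0.01 in limma, 37 MHC regions were more accessible and 3 were less accessible after CCI, 40 of 464 or 8.62%. Over all accessible regions the same rule called 3.59%, of which 2.13% were higher and 1.46% lower. In the rest of chromosome 20 it called 4.33%, with 3.49% higher and 0.842% lower. Of the 37 regions that rose, 36 lay at or after RT1-S3, as did 311 of all 464 MHC regions. H3K4me1 overlapped 32 of the 37, against 309 of the 464. Over the genome it overlapped 2010 of the 3968 regions called higher, and 31.3% of all accessible regions. CCI rat 1 had more normalized reads than CCI rat 2 in 33 of the 37, and in 259 of the 424 MHC regions that were not called.

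These counts depended on the reference level and on single rats. With each library centred on the rest of chromosome 20, 18 MHC regions were higher and 7 lower, against 0.635% and 3.73% of all regions. With each library centred on the median of the region's own 1 Mb window, an alternative chosen after the values were seen, 6 were higher and 6 lower, against 0.360% and 2.71% of all regions. Every one of the 40 kept its direction under both. Leaving out naive rat 1 left 17 calls, 15 higher and 2 lower, against 2420 higher and 1373 lower of all 186719 regions. Leaving out a CCI rat leaves 1 in that group, so effect sizes are given here. The MHC median log2 fold change was 0.28 without CCI rat 1 and 0.45 without CCI rat 2. Over all regions it was 0.063 and 0.17.

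In both CCI rats the value exceeded that of every naive rat in 167 MHC regions (36.0%), against 18.2% of all regions. It was below every naive value in 22 (4.74%), against 11.0% of all regions.

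**Figure D3:**
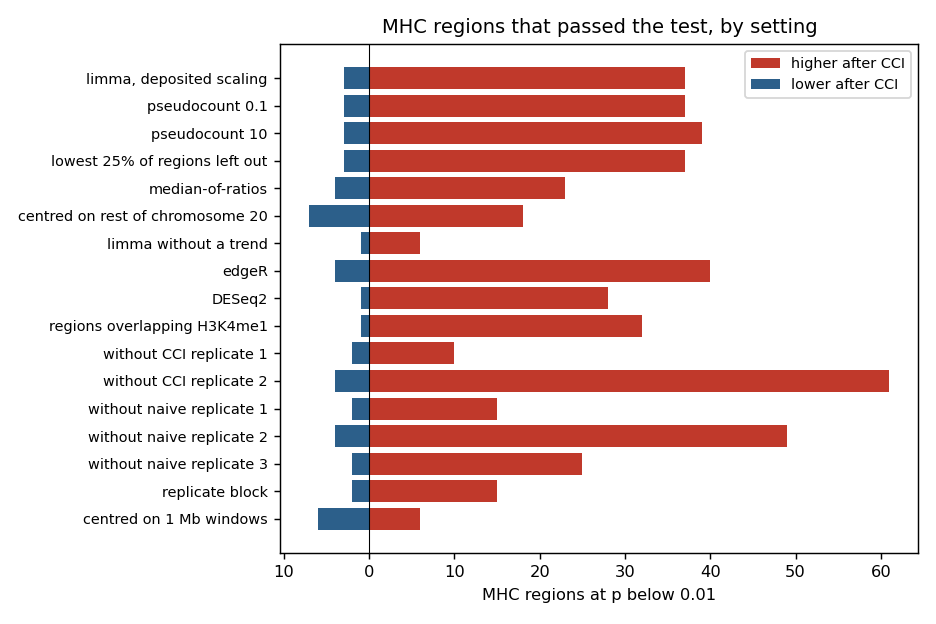
Number of MHC regions at p below 0.01, higher after CCI to the right and lower to the left of 0, for each of 17 settings. Among settings that keep both CCI rats, the number that rose runs from 6 (limma without a trend, and centring on 1 Mb windows) to 49 (without naive rat 2). The settings that leave out a CCI rat leave 1 rat in that group.

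After Benjamini-Hochberg adjustment over all regions, 7 MHC regions passed 0.05 in limma, 5 higher and 2 lower, against 0.344% of all regions. They were the regions named RT1-A3, RT1-A1, RT1-A2, Mir6328 and Slc39a7 and 2 unnamed regions. In edgeR 6 MHC regions passed the same adjusted threshold, 5 higher and 1 lower, against 312 higher and 387 lower of all 186719 regions. In DESeq2 none did, against 1 higher and 16 lower of all 186719 regions. There, 29 MHC regions had an unadjusted p below 0.01, 28 higher and 1 lower. Over all regions DESeq2 gave 1327 higher and 1286 lower at that p.

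The regions named for the classical class I genes changed in opposite directions. RT1 genes are polymorphic and duplicated, and the rats were outbred. Whether single rats differed in RT1-A sequence or copy number was not tested. The RT1-A3 region and the RT1-A1 promoter region were 2.42 and 2.47 times as accessible after CCI as in naive rats, and the RT1-A2 promoter region was 4.03 times less accessible. RT1-A genes encode the class I chains that present peptides to CD8 T cells. Of the 5 regions with a class I name, 4 rose and 1 fell. Of all 29 named regions 23 rose and 1 fell, and of all accessible regions 2.13% rose and 1.46% fell. The class I regions too were named from the differential lists of the study, so nothing is read from this count.

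The RT1-A3 region, chr20:3795480-3796553, had 140 and 109 normalized reads in the CCI rats and 48.7, 47 and 56.5 in the naive rats. The groups were well separated, at 125 ± 21.8 (SD, n = 2) and 50.7 ± 5.08 (SD, n = 3). The log2 fold change was 1.28 ± 0.26 (SE), with an adjusted p of 0.00247 in limma.

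At the RT1-A1 promoter, chr20:5413694-5414882, CCI rats had 107 and 95.7 normalized reads and naive rats had 46.4, 30 and 47.3. The lowest CCI rat was far above the highest naive rat. The log2 fold change was 1.30 ± 0.27 (SE, limma adjusted p = 0.00283). A further RT1-A1 region, chr20:5424315-5425224, lay 9.43 kb away and had 72.1 and 47.6 normalized reads after CCI and 24.2, 43 and 21.0 in naive rats. Here CCI rat 2 and naive rat 2 were close, and the log2 fold change of 1.04 ± 0.29 (SE) had an adjusted p of 0.0732 in limma.

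The RT1-A2 promoter region, chr20:5374697-5375018, had 4.67 and 10.1 normalized reads in the CCI rats and 28.1, 32 and 32.9 in the naive rats. In whole reads these were 7 and 22 against 86, 32 and 50, so the CCI values rest on few reads. The naive rats lay close together, and both CCI rats were far below them. The log2 fold change was -2.01 ± 0.38 (SE, limma adjusted p = 0.000592), and it ran from -2.49 to -1.53 when each rat was left out.

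RT1-A2 and the RT1-A1 promoter are 38.7 kb apart, and 8 accessible regions lie between them, all with H3K4me1. Their log2 fold changes ran from -0.47 to 0.29 and none passed the test, with adjusted p values of 0.716 or more in limma. In RefSeq GRCr8 the 2 protein-coding genes between Ring1 and RT1-A1 are RT1-A3 and RT1-A2, while in rn6 the regions named Ring1 and RT1-A1 are 1.60 Mb apart, so the assemblies place these copies differently. In the lists of the study the RT1-A1 and RT1-A3 regions carry the same Ensembl identifier (ENSRNOG00000038999), and RT1-A2 carries another (ENSRNOG00000030712). The windows printed above share 90.5% to 91.8% of aligned bases, so the values of single RT1-A copies are given as uncertain. Whether reads were shared between copies was not tested.

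The RT1-S3 region, chr20:3176049-3177341, had 175 and 160 normalized reads after CCI and 115, 98 and 105 in naive rats. RT1-S3 is a class I gene outside the classical RT1-A group. The groups did not overlap, and the log2 fold change was 0.66 ± 0.25 (SE), with an adjusted p of 0.272 in limma. Its unadjusted p was just under 0.01 and passed that threshold no longer when the libraries were centred on the rest of chromosome 20.

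**Figure D4:**
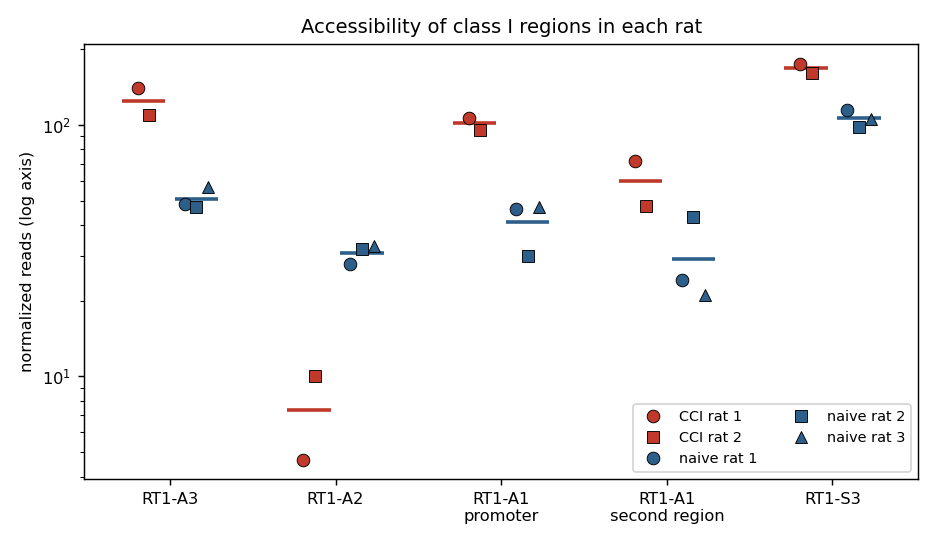
Normalized reads on a log axis for the 5 regions with a class I name. Each point is 1 rat and each bar a group mean. RT1-A2 is lower in both CCI rats (4.67 and 10.1) than in the naive rats (28.1 to 32.9), and the other 4 regions are higher in both.

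The stretch from RT1-A3 to Rxrb, 28.1 kb with 6 accessible regions, had the highest median log2 fold change of the 8 stretches between named regions, 0.96. In all 6 regions both CCI rats exceeded all naive rats, against 18.2% of all accessible regions, and 4 passed the test, against 3.59%. Besides RT1-A3 these were Ring1, Slc39a7 and Rxrb. These stretches were set after the values were seen, so the order is a description.

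The Slc39a7 region, chr20:3822080-3822465, had 73.4 and 65.0 normalized reads in CCI rats and 44.1, 31 and 24.3 in naive rats. Slc39a7 encodes a zinc transporter of the endoplasmic reticulum. The log2 fold change was 1.08 ± 0.28 (SE, limma adjusted p = 0.0425). The Rxrb promoter region, chr20:3822668-3823606, had 401 and 240 normalized reads after CCI and 161, 202 and 156 in naive rats. Rxrb encodes a retinoid X receptor, a partner of many nuclear receptors. In RefSeq both genes start 400 bp apart on opposite strands, and their promoter windows overlap. The Rxrb log2 fold change was 0.85 ± 0.26 (SE), and without CCI rat 1 it was 0.48, the lowest value in leaving out each rat.

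Ring1 encodes a subunit of Polycomb repressive complex 1. Its promoter region, chr20:3815487-3816404, had 211 and 152 normalized reads in the CCI rats and 90.8, 150 and 91.3 in the naive rats. CCI rat 2 and naive rat 2 were nearly equal, and the log2 fold change was 0.73 ± 0.25 (SE, limma adjusted p = 0.195).

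Between the Rxrb and Pbx2 regions, 534 kb held 41 accessible regions, 76.8 per Mb, close to the background of the chromosome. RefSeq GRCr8 places 28 protein-coding genes between Rxrb and Pbx2, among them the class II genes RT1-Ba, RT1-Bb, RT1-Da and RT1-Db1, and Tap1, Tap2, Psmb8 and Psmb9, which process and transport class I peptides. Whether rn6 has the same genes there was not checked. The median log2 fold change of the 41 regions was 0.56, with 2 called higher and none lower, against 2.13% and 1.46% of all accessible regions, and the median region had 20.7 and 17.9 normalized reads after CCI against 12.4, 15 and 15.1. In every rat this median was the lowest of the stretches from RT1-S3 onward.

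One of its called regions, chr20:4352150-4353275, lay 4.09 kb before the Pbx2 region. It had 473 and 324 normalized reads in CCI rats and 171, 315 and 162 in naive rats, so that CCI rat 2 and naive rat 2 nearly met. The log2 fold change was 0.92 ± 0.26 (SE, limma adjusted p = 0.0807).

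The class III stretch from Pbx2 to Ehmt2 was denser than all others but the one from RT1-A3 to Rxrb, with 40 accessible regions in 220 kb, 182 per Mb. Of these, 38 had a fold change above 0, against 58.1% of all accessible regions, and 8 passed the test, all higher after CCI, against 2.13% higher among all regions. The median log2 fold change was 0.60. The complement genes C2, Cfb and C4a lie between Pbx2 and Ehmt2 in RefSeq GRCr8.

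The region named Cfb, chr20:4541723-4541914, had 18.7 and 20.6 normalized reads in the CCI rats and 6.21, 1 and 5.26 in the naive rats. Cfb encodes complement factor B of the alternative pathway. The naive values stand for 19, 1 and 8 reads, so the log2 fold change of 2.20 ± 0.60 (SE, limma adjusted p = 0.0567) is imprecise. It was also one of the 5 MHC regions that varied most among the naive rats, with an SD of 1.01 on the log2 scale.

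The Pbx2 promoter region, chr20:4357367-4358182, had 227 and 148 normalized reads after CCI and 77.1, 124 and 92.7 in naive rats. Pbx2 encodes a homeodomain transcription factor. Its log2 fold change was 0.93 ± 0.25 (SE, limma adjusted p = 0.0593). The Ehmt2 promoter region, chr20:4575729-4577434, had 329 and 225 normalized reads after CCI against 139, 181 and 124. Ehmt2 encodes the histone H3 lysine 9 methyltransferase G9a. The groups did not overlap in either region, and the Ehmt2 log2 fold change was 0.89 ± 0.26 (SE, limma adjusted p = 0.0831).

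Egfl8, which encodes a secreted protein with EGF-like domains, had 2 called regions. At chr20:4379001-4379803 the CCI rats had 156 and 133 normalized reads and the naive rats 75.2, 85 and 71.0. The groups were clearly separated, with a log2 fold change of 0.89 ± 0.25 (SE, limma adjusted p = 0.0785) that passed p below 0.01 with any 1 rat left out. Agpat1, which encodes an acyltransferase of phosphatidic acid synthesis, had 176 and 105 normalized reads against 70.9, 102 and 59.8, so that CCI rat 2 barely exceeded naive rat 2.

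From Ehmt2 to Csnk2b, 85 accessible regions had a median log2 fold change of 0.44, 72 overlapped H3K4me1 and 10 rose, against 2.13% of all accessible regions. The named ones that rose were Nfkbil1, Lta, LOC102549726, Vwa7, Clic1 and Abhd16a. In RefSeq GRCr8 Nfkbil1 is not between Ehmt2 and Csnk2b, so the gene order of the assemblies differs here.

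The region named Lta, chr20:4840356-4840738, had 31.4 and 35.3 normalized reads in CCI rats and 11.8, 14 and 17.7 in naive rats. Lta encodes lymphotoxin alpha, a cytokine of the TNF family. The replicates of each group lay close together, with a log2 fold change of 1.16 ± 0.36 (SE, limma adjusted p = 0.119). The Nfkbil1 promoter region, chr20:4823396-4824350, had 246 and 201 normalized reads against 129, 146 and 129, and a log2 fold change of 0.72 ± 0.25 (SE). Nfkbil1 encodes a protein related to the inhibitors of NF-kB. With Cfb, the 3 regions of the complement and cytokine list that had a name rose, against 23 of all 29 named regions and 2.13% of all accessible regions, and the names come from differential lists made on the same libraries.

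The region named Clic1, chr20:5041740-5041930, had 42.1 and 30.7 normalized reads after CCI and 12.1, 16 and 17.1 in naive rats, with no overlap. Clic1 encodes a chloride intracellular channel protein. Its log2 fold change was 1.21 ± 0.35 (SE, limma adjusted p = 0.0831). The Ddah2 promoter region, chr20:5049291-5050725, had 380 and 271 normalized reads against 198, 253 and 195, and did not pass, with an adjusted p of 0.375 in limma. Ddah2 belongs to the dimethylarginine dimethylaminohydrolase family.

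Of the 12 regions in the chromatin and housekeeping list, 9 rose and 3 did not pass, Csnk2b, Vars and Phf1. Vars encodes valyl-tRNA synthetase and Phf1 a PHD finger protein of Polycomb repressive complex 2. The log2 fold changes were 0.61 for Csnk2b, 0.65 for Vars and 0.63 for Phf1. Over all accessible regions 2.13% rose, but these regions have names because the study listed them as differential on the same libraries, and 23 of all 29 named regions rose, so nothing is read from this count. The list had a median log2 fold change of 0.72, which the same selection raised. In the stretch after RT1-A2, the Rps18 promoter region (a small ribosomal subunit protein) had 217 and 185 normalized reads against 124, 144 and 112, and the Cuta promoter region had 491 and 387 against 239, 249 and 232. Neither pair of groups overlapped, and the log2 fold change was 0.86 ± 0.27 (SE) for Cuta and 0.67 ± 0.25 (SE) for Rps18, a difference within these errors.

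**Figure D5:**
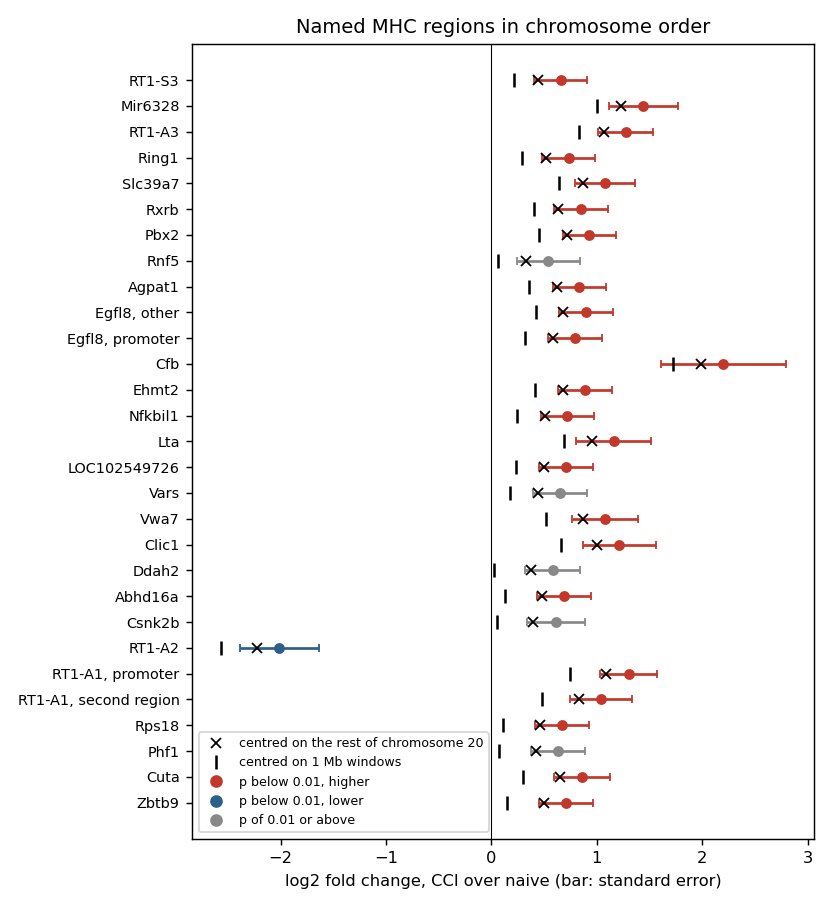
Log2 fold change of CCI over naive for the 29 regions with a gene name, in chromosome order. Points are limma estimates with their standard errors, crosses the values centred on the rest of chromosome 20 and ticks those centred on 1 Mb windows. RT1-A2 alone lies below 0, and Rnf5, Vars, Ddah2, Csnk2b and Phf1 did not pass p below 0.01.

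A region named Mir6328, chr20:3392630-3392889, between RT1-S3 and RT1-A3, had 56.7 and 38.9 normalized reads in CCI rats and 17.6, 11.0 and 23.7 in naive rats. The groups did not overlap, with a log2 fold change of 1.44 ± 0.33 (SE, limma adjusted p = 0.0106). The unnamed region chr20:4466707-4466992 had 25.4 and 24.7 normalized reads after CCI and 8.17, 3 and 13.1 in naive rats. It had no H3K4me1, and its log2 fold change was 1.70 ± 0.45 (SE, limma adjusted p = 0.0490).

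The other 2 regions that fell were unnamed, lay before RT1-S3 and had no H3K4me1. At chr20:2574996-2575791 the CCI rats had 6.68 and 20.1 normalized reads and the naive rats 29.4, 35 and 29.6. CCI rat 1 was the lower of the pair, and the log2 fold change of -1.34 ± 0.35 (SE, limma adjusted p = 0.0413) became -0.61 without it. At chr20:2252466-2252775 CCI rat 2 was at the floor of 1 read, with 6.68 and 0.460 normalized reads in CCI rats against 15.03, 8 and 13.1. Its log2 fold change of -1.92 ± 0.64 (SE) had an adjusted p of 0.175 in limma, and without CCI rat 2 it was -0.72.

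Spread among replicates was taken on the log2 scale, and MHC regions also held more reads than the background, as given above. The median SD among naive rats was 0.34 in MHC regions and 0.43 in the rest of chromosome 20, and the CCI rats differed by a median of 0.41 and 0.54. MHC regions with H3K4me1 had a median naive SD of 0.29, and those without had 0.48. The widest naive spread among regions with at least 10 normalized reads on average was at chr20:3238824-3239086, with 20.9, 35 and 3.94 normalized reads in naive rats and 20.03 and 21.5 in CCI rats. Naive rat 2 was lowest in 3 of the other 4, with 4 normalized reads at chr20:2552497-2552750, 2 at chr20:5026575-5026734 and 1 in the Cfb region, and highest with 14 at chr20:5580671-5580871.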

How the data were processed

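ATAC-seq libraries from 2 CCI and 3 naive rats and the H3K4me1 regions of 2 CCI and 2 naive pools were used, grouped by the sample titles. Per the submitters' processing notes, CASAVA 1.8.2, Bowtie2, MACS2 and limma were used with rn6, and the other versions are not given in the sources used here. The authors trimmed the ATAC-seq reads, aligned them to rn6, removed duplicates and reads with a mapping quality below 10, and centred a fragment of 150 bases on each Tn5 insertion before regions were called in each library. The deposited signal is reads per region divided by a size factor, which runs from 1 to 3.06. Multiplied back, 99.988% to 100% of the values of a library were whole reads within a rounding tolerance of 0.0051. The deposited H3K4me1 positions of both groups were merged by the authors and carry no signal per sample. The supplementary lists also hold the authors' fold changes and p-values, which were not used.

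Overlaps were found with bedtools 2.31.1 (at least 1 bp). CCI and naive rats were compared on log2(value + 1) by limma (version 3.58.1, R 4.3.3), which modelled the trend of variance with the mean, without covariates, over all 186719 regions and without a filter on low values. It was two-sided, with p below 0.01 as the call and Benjamini-Hochberg adjustment over all regions. On this scale the change of regions with few reads is understated. The replicates are separate rats, and the replicate numbers do not pair CCI and naive rats. The exact permutation test over rats and the read floors used Python 3.11.15 with scipy 1.17.1, and promoter windows were aligned with Biopython 1.88. edgeR 4.0.16 and DESeq2 1.42.0 served as alternatives, on whole reads and the same size factors. All 3 tests were tried on simulated reads, with 200 changed regions drawn from those with a mean of at least 10. At p below 0.01 and a log2 change of 1, limma and edgeR each recovered 46% and DESeq2 22%. At a log2 change of 2, limma recovered 96%, edgeR 97% and DESeq2 89%. Of unchanged regions, limma called 0.93%, edgeR 1.06% and DESeq2 0.22%. The simulated reads had no shift between groups outside the changed regions, and their spread followed the trend with the mean. The real libraries had a median log2 fold change of 0.13 over all regions, so these rates need not hold for the real comparison.

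Regions with values in the text are those with an adjusted p below 0.05, examples of the 12 lowest p values in each direction, regions named for genes of fixed lists (class I, class II, antigen processing, complement and cytokines, heat shock, chromatin and housekeeping, neural, olfactory), the 5 with the largest SD among naive rats at a mean of at least 10, and the 5 with the highest mean. Agpat1 and Rnf5 were named for the H3K4me1 region that holds them, after their values were seen. The region, the lists and the tests were chosen with earlier results of these data known. Coordinates of regions are those of rn6, counted from 1, and sequences are RefSeq GRCr8. No column of values was left unmatched to a sample. Counting error is the only error that the read numbers cover.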

Additional observations from a re-analysis of the deposited data

How the results depend on the processing

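The settings below were compared with 40 called MHC regions, 37 higher and 3 lower, and a median log2 fold change of 0.38. The 1 Mb centring was chosen after the values were seen, and the cause of the differences between settings was not tested. Centring on the rest of chromosome 20 gave 25 calls (18 higher, 7 lower) and a median of 0.17, and centring on 1 Mb windows 12 (6 and 6) and 0.017. These centrings and median-of-ratios scaling, which gave 23 higher and a median of 0.27, shifted the median of all regions by -0.21, -0.18 and -0.10. Over all 186719 regions median-of-ratios scaling gave 2353 higher and 4619 lower. limma without a trend gave 7 calls (6 and 1), 1.51% of the MHC regions, against 1861 higher and 1281 lower of all 186719 regions. DESeq2 and the regions with H3K4me1 gave 1 lower call each. Over all regions DESeq2 gave 1286 lower, and over all 58445 regions with H3K4me1 there were 1104 lower. A limma p below 0.05 gave 109 (102 and 7), against 13458 higher and 7361 lower of all 186719 regions. An adjusted p below 0.05 in limma gave 7 with 5 higher, against 200 higher and 443 lower of all regions. A pseudocount of 10 gave a median of 0.27. Leaving out each rat gave 12 to 65 calls, 10 to 61 of them higher and 2 to 4 lower, and medians of 0.28 to 0.45. The replicate block, which joins rats that share only a number (deviations correlated at -0.062 and -0.056), gave 17 calls, 15 higher and 2 lower. Over all 186719 regions the block gave 2384 higher and 1560 lower. The difference between groups in the MHC excess over the rest of the chromosome, CCI minus naive, kept its direction in all 10 alternatives tried, from 0.059 to 0.12. Overlap of at least 50% of the region lowered the H3K4me1 share from 66.6% to 62.1%. For the 28 regions named by rule with a fold change, no alternative reversed a direction. Of 445 values, 326 kept their side of the threshold, 110 no longer passed and 9 newly passed. RT1-A2 and RT1-A3 had a p below 0.01 in all 16 alternatives and the RT1-A1 promoter in 15, with adjusted p values up to 0.507. Depth limits regions such as Cfb, where naive rat 2 had 1 read.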
